A study of Mus musculus with 6 samples.

Results

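The genes Mitf, Sox10, Pax3, Tfap2a, Lef1, Ednrb, Mc1r, Erbb3 and Kit, which are transcription factors and surface receptors of the melanocyte lineage, were followed in single melanoma cells. They are 9 of the 25215 genes measured and were taken by symbol. The cells came from tumors of B16-F10, a pigmented mouse melanoma line, and of R499, a line made from a B16 tumor that grew back after radiation with anti-CTLA4, each grown from 50000 cells injected under the skin of C57BL/6 mice. The 3 conditions were untreated B16 (B16), B16 in mice given anti-PD1 at 200 μg a dose, first on day 5, then on day 8 and last on day 11 (B16PD1) and untreated R499 (R499), with 2 mice in each and harvest on day 15 throughout. Mice carried the cells on both flanks, both lines go back to 1 parental line, and cells negative for CD45, a marker of blood cells, were sorted before full-length Smart-seq libraries were made. The tumors are named B16007 and B16008, B16PD1000 and B16PD1002, R499015 and R499016.

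Expression was given as TPM, a length-corrected share of the transcripts of a cell that adds up to the same total in every cell, so read depth cannot be recovered from it. Cells were retained with over 1000 genes detected, meaning TPM above 0, and under 10% of TPM from mitochondrial genes. This left 507 of 602 cells, namely 91, 86, 86, 88, 81 and 75 cells in the tumors in the order above. The median number of genes detected per cell was 3647 and 3389 (B16), 3808 and 3839 (B16PD1) and 3141 and 3682 (R499). No well name was shared by cells of different tumors. A level below is the mean of log2(TPM + 1) over the retained cells of a tumor unless TPM is named, and 7 of the 9 genes, all but Ednrb and Lef1, passed the filter of detection in more than 5 retained cells and were tested.

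Mitf is the basic helix-loop-helix factor that binds the promoters of pigment genes and sets melanocyte identity. Sox10 and Pax3, factors of the neural crest, act with Creb and Lef1 on the promoter from which melanocytes transcribe Mitf, and Tfap2a works beside Mitf on many lineage genes. Ednrb, Kit and Erbb3 receive endothelins, Kit ligand and neuregulins and guide the migration and survival of melanocyte precursors, whereas Mc1r receives melanocortins and raises cyclic AMP, which increases Mitf transcription. Tyrp1, Dct and Pmel, which encode a pair of enzymes of melanin synthesis and the fibril protein of the melanosome, served as the pigment readout.

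Mitf was the most abundant of the factors. It was detected in 471 of 507 cells (92.9%, 95% Wilson interval 90.3% to 94.8%; such intervals cover counting error only), with a mean of 151 TPM and tumor means of 121 to 185 TPM; means of TPM here and below are over all retained cells. Its level was 6.76 and 6.72 (B16), 5.95 and 6.06 (B16PD1) and 6.13 and 6.23 (R499). Both B16 tumors thus stood above the other 4. The same order held among cells with detected Mitf, where the level was 7.07 and 7.04 (B16), 6.56 and 6.51 (B16PD1) and 6.89 and 6.67 (R499). Averaged over 2 tumors, Mitf was detected in 95.5% of B16 cells with an SD of 0.18, in 91.9% of B16PD1 cells with an SD of 1.76, and in 91.1% of R499 cells with an SD of 3.14.

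Pax3 was detected in 452 cells (89.2%, 86.1% to 91.6%) at a mean of 82.1 TPM. The level of Pax3 was 5.59 and 5.37 (B16), 5.35 and 4.98 (B16PD1) and 5.85 and 5.55 (R499), so that the B16 tumors lay between the others and overlapped R499. Sox10 was found in 330 cells (65.1%, 60.8% to 69.1%) at 26.8 TPM. Its level was 3.01 and 2.87 (B16), 3.12 and 3.43 (B16PD1) and 3.31 and 2.99 (R499), a range smaller than that of any other factor with a level above 2. Tfap2a was detected in 147 cells (29.0%, 25.2% to 33.1%) at 11.0 TPM. Its level was 1.57 and 1.50 (B16), 1.25 and 1.04 (B16PD1) and 1.15 and 0.96 (R499), again with both B16 tumors above the other 4. Among cells with detected Tfap2a this order did not hold, at 4.32 and 4.96 (B16), 3.98 and 3.97 (B16PD1) and 4.44 and 4.25 (R499). Lef1, which carries beta-catenin to DNA, had 0.70 TPM in 1 retained cell of B16PD1002 and was listed at 0 in the others.

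Mc1r was the receptor found in most cells, 369 of 507 (72.8%, 68.7% to 76.5%), at a mean of 38.0 TPM. Its level was 4.45 and 3.64 (B16), 3.28 and 3.90 (B16PD1) and 2.91 and 4.27 (R499), and the tumors of a condition differed more from each other than the conditions did. Its share of cells ran from 61.7% (50.8% to 71.6%) in R499015 to 82.4% (73.3% to 88.9%) in B16007. Erbb3 was detected in 61 cells (12.0%, 9.48% to 15.2%) at 1.63 TPM. The level of Erbb3 was 0.61 and 0.49 (B16), 0.27 and 0.20 (B16PD1) and 0.20 and 0.65 (R499), where the pair of tumors spanned the whole range.

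Kit was detected in 28 cells (5.52%, 3.85% to 7.87%), between 2 and 7 cells in each tumor. Its level was 0.31 and 0.21 (B16), 0.10 and 0.22 (B16PD1) and 0.38 and 0.25 (R499). A single cell of B16007 with 1477 TPM of Kit set the mean of that tumor, which was 17.4 TPM with this cell and 1.19 TPM without it, and the next highest cell, in R499015, had 115 TPM. This cell had 1261 genes detected, Tyrp1 at 1885 TPM, Dct at 4030 TPM, Pmel at 1152 TPM and Mitf at 363 TPM. It held 0 of 7 markers of mast cells, which are 1 of the other cell types known for high Kit. Ednrb was listed at 0 in the 602 cells before the filter. A count of 0 in 507 cells allows a share of up to 0.592% of cells with Ednrb detected, taken as 3 counts of the total, and the Wilson upper limit is 0.752%. Actb, Gapdh, Eef1a1 and Ppia, which every cell uses, were detected in all 507 retained cells, and 8 genes within 1 Mb of Ednrb were detected in more than 5. Of the lineage receptors, Mc1r was thus detected in most cells, Erbb3 and Kit in a minority, and Ednrb in 0.

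**Figure D1:**
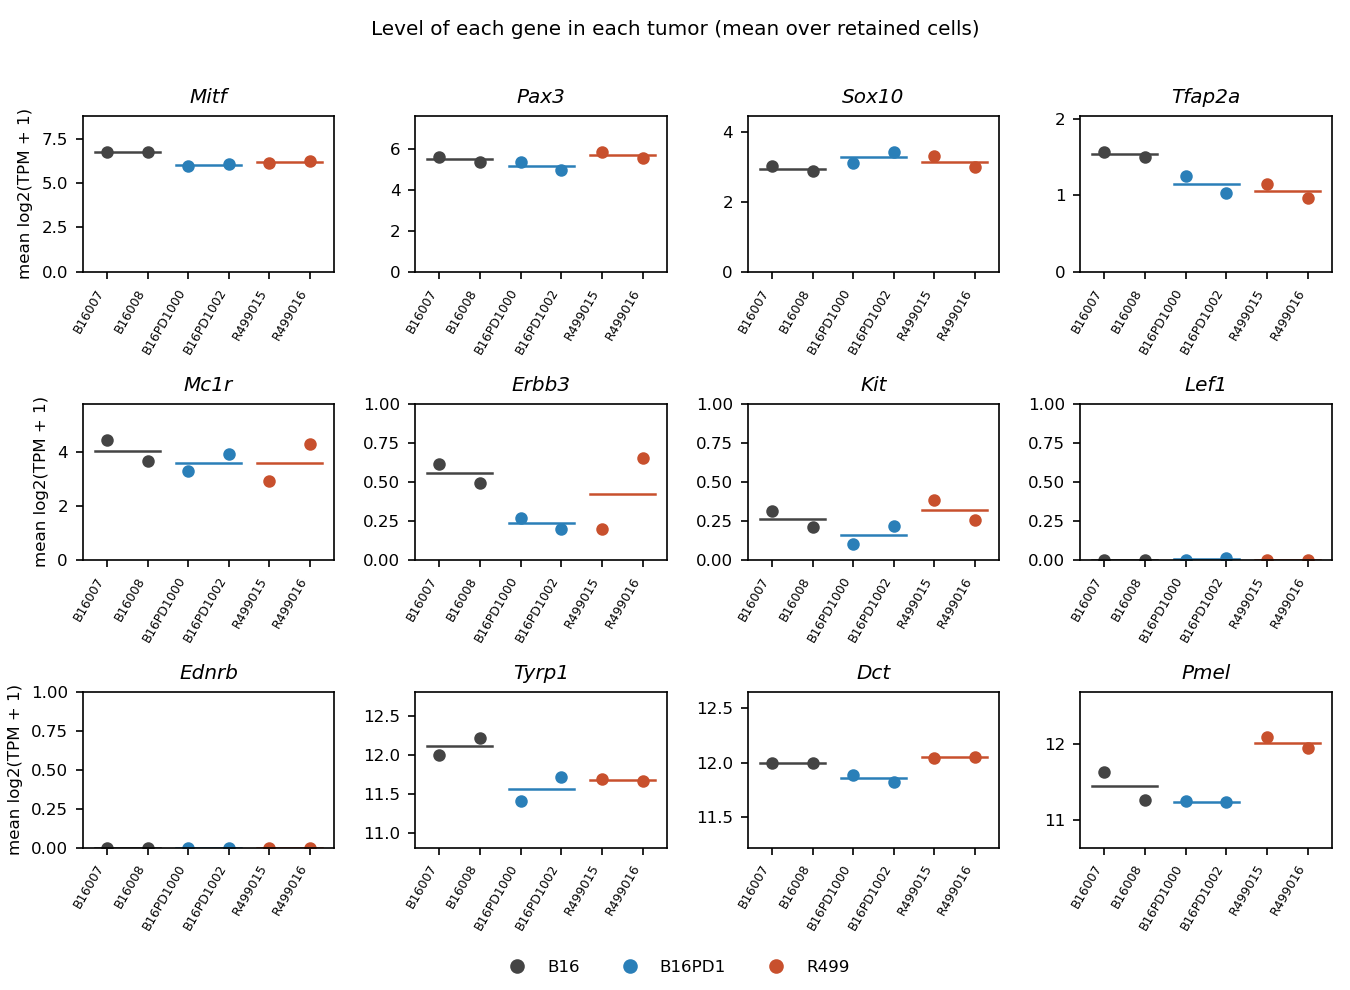
Mean log2(TPM + 1) over retained cells (vertical axis) of the 9 genes and of Tyrp1, Dct and Pmel in each of 6 tumors (horizontal axis); points are tumors, lines the mean of 2 tumors, and the vertical axes of the 3 pigment genes do not start at 0. Both B16 points of Mitf (6.76 and 6.72) and Tfap2a (1.57 and 1.50) lie above the other 4, while Mc1r ranges from 2.91 to 4.27 within R499.

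**Figure D2:**
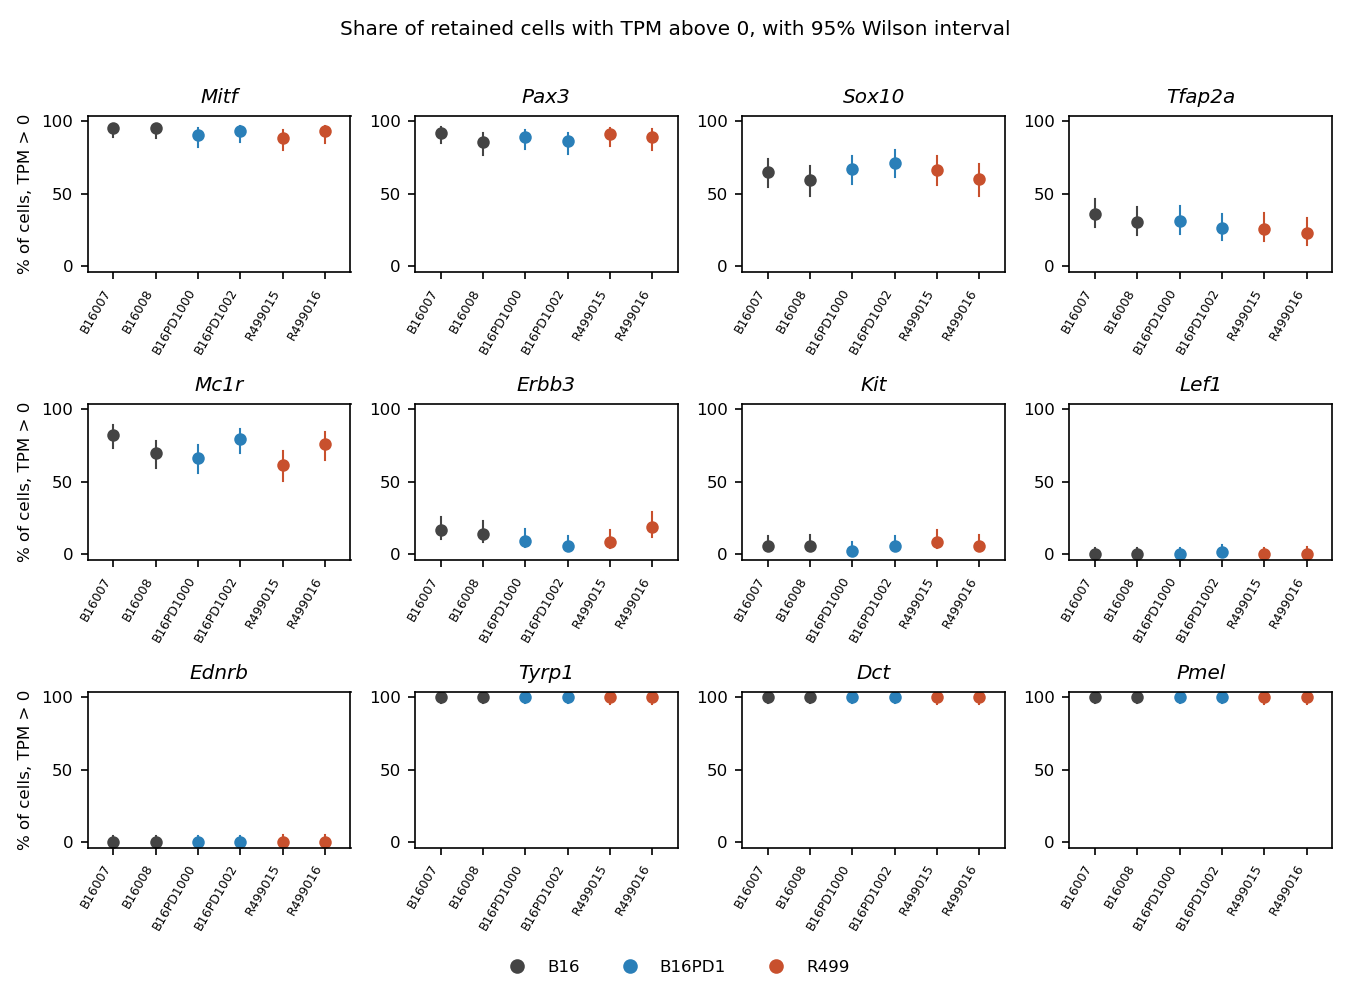
Percent of retained cells with TPM above 0 (vertical axis) in each tumor (horizontal axis), with 95% Wilson intervals as bars. Mitf and Pax3 were detected in most cells of each tumor, Erbb3 and Kit in 18.7% of cells or fewer, Lef1 in 1 cell, and Ednrb in 0.

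Ordered by mean TPM, the genes ran Mitf, Pax3, Mc1r, Sox10, Tfap2a, Kit, Erbb3, Lef1 and Ednrb. The tumor means of Mitf (121 to 185 TPM) did not overlap those of Pax3 (63.0 to 107 TPM), nor those of Pax3 the range of Mc1r (23.0 to 54.3 TPM). Mc1r and Sox10 (22.0 to 35.0 TPM) overlapped, although Mc1r was higher in 5 of 6 tumors. Tfap2a (7.56 to 19.7 TPM) lay below Sox10 in each tumor and overlapped Kit, and Kit was higher than Erbb3 in 2 of 6 tumors, so their order rests on B16007. Among the 11264 genes tested, Mitf ranked 1072 by mean TPM, Pax3 1769, Mc1r 3038, Sox10 3778, Tfap2a 5686, Kit 7730 and Erbb3 9359, whereas Tyrp1, Dct and Pmel ranked 23, 24 and 31 with means of 4275, 4273 and 3464 TPM.

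Detection followed the number of genes detected in a cell. In the 127 cells with 1007 to 2625 genes, Mitf was found in 76.4%, Pax3 in 69.3%, Mc1r in 44.1%, Sox10 in 37.8%, Tfap2a in 10.2% and Erbb3 in 3.94%. In the 127 cells with 4625 to 6816 genes the shares were 100%, 100%, 92.9%, 82.7%, 48.0% and 18.1%. Kit was found in 4.72% and 6.30% of these cells, respectively. A cell held a median of 4 of the 9 genes, from 0 in 5 cells to 7 in 1 cell, and across cells this number and the genes detected had a Pearson r of 0.624. The part of genes detected in the differences between conditions was not tested beyond the covariate and depth-band settings given at the end.

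Mitf, Sox10 and Pax3 were detected together in 295 cells (58.2%), which had a median of 4164 genes. Another 131 cells (25.8%) had Mitf and Pax3 without Sox10 and a median of 3095 genes. In 7 cells (1.38%) with a median of 1437 genes none of the 3 factors was detected, and Tyrp1 was still at 510 TPM or more. All 507 cells had Tyrp1, Dct and Pmel above 0, and so did each of the 61 cells with Erbb3 and the 28 cells with Kit.

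The comparison of B16PD1 with B16 asks whether tumor cells differ after anti-PD1. Conditions were compared with limma on the 6 tumor means, and a gene was called at an adjusted p under 0.05. Of the 7 genes tested 0 were called, against 0% of all 11264 genes; at an unadjusted p under 0.05, 2 of 7 passed (Mitf and Erbb3), against 4.69% of all genes. Mitf differed by -0.73 (SE 0.31, 95% interval -1.38 to -0.079, adjusted p = 0.989) and Erbb3 by -0.32 (SE 0.14, -0.62 to -0.020, adjusted p = 0.989). Mitf was lower in both B16PD1 tumors than in either B16 tumor, as were Pax3 (-0.31), Tfap2a (-0.39) and Erbb3, which makes 4 of 7, against 15.4% of all genes. Sox10 (0.33) was higher without overlap, 1 of 7 against 17.9%. Without B16PD1000 and without B16PD1002, Pax3 was at -0.49 and -0.13 and Sox10 at 0.49 and 0.18, and Tfap2a was at 0.065 in cells with 2500 to 5000 genes. Mc1r (-0.45, interval -1.38 to 0.47) and Kit (-0.10, -0.31 to 0.10) overlapped. Mc1r was at -0.051 without B16007, -0.86 without B16008 and -1.03 with genes detected as covariate, and Kit ran from -0.043 without B16PD1000 to -1.86 from the log2 of mean TPM. Tyrp1 differed by -0.54 (SE 0.18, adjusted p = 0.989), Dct by -0.14 and Pmel by -0.20, all with both B16PD1 tumors below both B16 tumors. Pmel was at -0.017 without B16007 and at -0.39 without B16008.

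R499 was compared with B16 to see what separates the line that resists checkpoint blockade from its parent. Again 0 of 7 genes were called, where 0.0621% of all genes were, and at an unadjusted p under 0.05 it was 0 of 7 against 10.5%. Mitf differed by -0.56 (SE 0.31, interval -1.21 to 0.090, adjusted p = 0.537) and Tfap2a by -0.48 (SE 0.25, -1.02 to 0.061, adjusted p = 0.524). These 2 of 7 genes were lower in both R499 tumors than in both B16 tumors, against 30.1% of all genes, and 0 of 7 were higher without overlap, against 11.6%. Both depended on which cells were used: Mitf was at -0.27 with over 2000 genes and under 5% mitochondrial TPM, where Tfap2a was also at -0.27, and in cells with 2500 to 5000 genes Mitf was at -0.29 and Tfap2a at -0.055. The differences of Sox10, Pax3, Mc1r, Erbb3 and Kit lay between -0.45 and 0.22, with overlapping tumors. Without R499015, those of Mc1r and Erbb3 turned from -0.45 to 0.23 and from -0.13 to 0.096, and Pax3 and Sox10 were at 0.070 and 0.050. Without R499016 Pax3 and Sox10 were both at 0.37. Tyrp1 differed by -0.43 (adjusted p = 0.421), Dct by 0.054 and Pmel by 0.58 (SE 0.19, adjusted p = 0.349). B16PD1 and R499 share the B16 tumors, so the like values of Mitf in both comparisons are not independent.

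Between R499 and B16PD1, 0 of 7 genes were called, against 0.071% of all genes, and 0 of 7 at an unadjusted p under 0.05, against 10.2%. Pax3 differed by 0.53 (SE 0.33, interval -0.17 to 1.23, adjusted p = 0.599), Mitf by 0.17 (-0.48 to 0.82, adjusted p = 0.881) and Kit by 0.16 (-0.048 to 0.36, adjusted p = 0.598). In these 3 of 7 genes both R499 tumors were above both B16PD1 tumors, against 10.2% of all genes, and 0 of 7 were below, against 31.3%. Mitf was at 0.11 without B16PD1000 and 0.38 with over 2000 genes and under 5% mitochondrial TPM, Pax3 at 0.35 without B16PD1002 and 0.88 in cells with 2500 to 5000 genes, and Kit at 0.093 without R499015 and 0.84 from the log2 of mean TPM. Mc1r differed by 0.00096 with an interval of -0.92 to 0.92, which leaves differences of either sign possible; it was at 1.54 with genes detected as covariate and at 0.34 in cells with 2500 to 5000 genes. Pmel had the largest difference of the pigment genes, 0.78 (SE 0.19, interval 0.38 to 1.18, adjusted p = 0.193). With the mean of each cell subtracted, Pmel was called at 0.92 (adjusted p = 0.0208), and over its alternatives the adjusted p ran from 0.0208 to 0.88.

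Between cells, the levels of the factors and receptors had r of 0.145 or less with those of the pigment genes. Pearson r was taken over the 507 cells after removing tumor means and the number of genes detected, as a description. The pigment genes rose and fell together, with r = 0.324 for Tyrp1 and Dct, 0.421 for Tyrp1 and Pmel and 0.465 for Dct and Pmel, and r above 0 in 6 of 6 tumors in each case. Mitf had r = 0.125 with Tyrp1, 0.107 with Dct and 0.0674 with Pmel, which is 1.57% of the variance or less. These values ran from -0.0700 to 0.311, from -0.206 to 0.299 and from -0.0419 to 0.252 over tumors, the highest being that of B16PD1000 in each case. Mc1r had its highest r with Dct, 0.145, positive in 4 of 6 tumors, and 0.0539 and 0.0791 with Tyrp1 and Pmel.

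Erbb3 had r below 0 with Tyrp1 (-0.125) and with Pmel (-0.116) in 6 of 6 tumors, and with Dct (-0.0399) in 4 of 6. Among the 61 cells with detected Erbb3, r was 0.434 with Dct, 0.0650 with Tyrp1 and 0.195 with Pmel. For the other genes, each among its detecting cells, r ran from -0.282 (Kit with Pmel, 28 cells) to 0.0844 (Mc1r with Dct). Among the 471 cells with detected Mitf it was 0.0565 with Tyrp1, 0.0742 with Dct and 0.0464 with Pmel. Over all retained cells, Sox10 had r = -0.0868 with Tyrp1, 0.0774 with Dct and -0.0029 with Pmel. For Pax3, Tfap2a and Kit, r with the 3 pigment genes lay between -0.0147 and 0.0686. Without removing genes detected, the r of Mitf and Mc1r with Dct was 0.154 and 0.191. Across the 36 cells without detected Mitf, Tyrp1 was lower than in cells with Mitf by a mean of 0.34 ± 0.50 (SD, n = 6 tumors), a difference smaller than its spread, and median genes detected were 1932 and 3720. Dct was higher in cells with Mc1r than in those without by 0.24 ± 0.14, with Tfap2a by 0.19 ± 0.072 and with Sox10 by 0.16 ± 0.10, and Pmel was higher with Mc1r by 0.11 ± 0.066 (SD, n = 6 tumors), each above 0 in 6 of 6 tumors. Genes detected were not removed here, and cells with these genes had more of them (medians of 3981 and 2579 for Mc1r). The pairs named as above 0 in 6 of 6 tumors were picked for that. The mean was below 0 for Sox10 with Tyrp1 (-0.096 ± 0.14) and Pax3 with Pmel (-0.017 ± 0.26), each above 0 in 2 of 6 tumors. The remaining pairs were above 0 in 3 to 5 of 6 tumors.

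**Figure D3:**
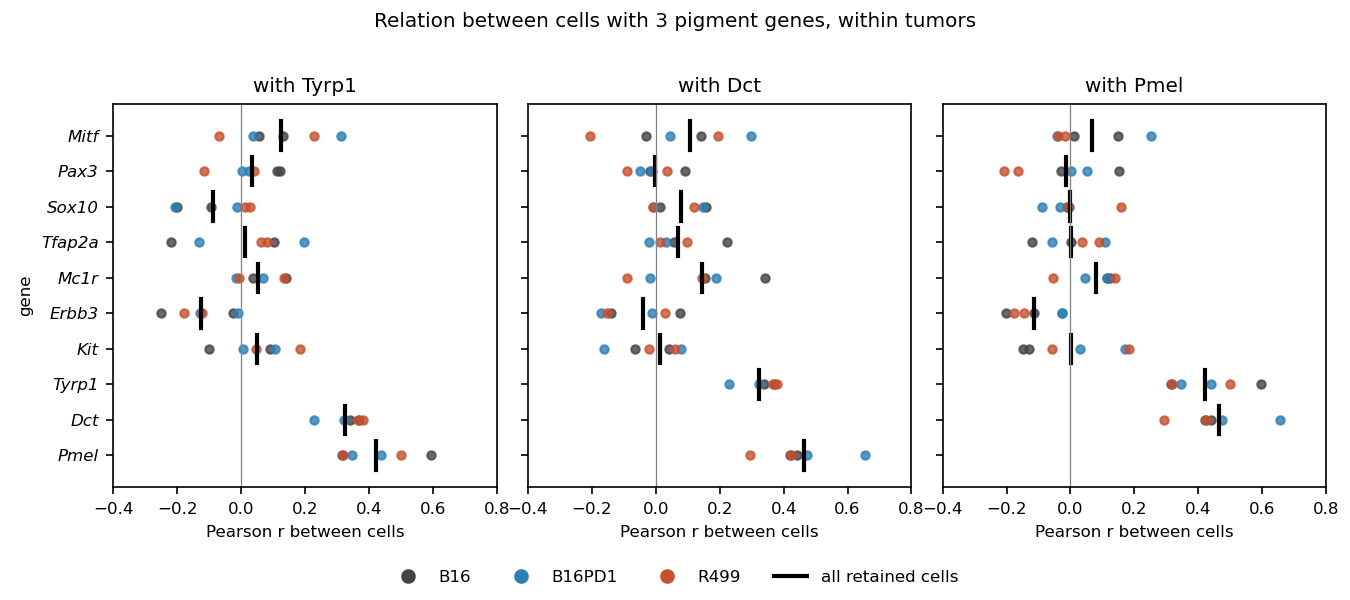
Pearson r between cells (horizontal axis) of each gene (vertical axis) with Tyrp1, Dct and Pmel after genes detected were removed; points are the 6 tumors and black bars all 507 cells. The pigment genes lie between 0.228 and 0.656 with each other in each tumor, while the factors and receptors lie on both sides of 0, apart from Erbb3, which lies below 0 in each tumor with Tyrp1 and Pmel.

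Among the 7 genes themselves, r lay between -0.0620 (Mc1r and Kit) and 0.128 (Mitf and Mc1r) over 21 pairs, with a median of 0.0537. Mitf and Mc1r, Sox10 and Erbb3 (0.121), Pax3 and Kit (0.0846) and Mitf and Kit (0.0754) had r above 0 in 6 of 6 tumors. Sox10 was detected in 52 of the 61 cells with Erbb3, and Pax3 in 28 of the 28 cells with Kit. Cells with Erbb3 and with Kit had medians of 4155 and 4131 genes, and in the 126 cells with 3551 to 4620 genes Sox10 was found in 81.0% and Pax3 in 94.4%.

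Of 6167 genes detected in at least 20% of retained cells, the gene most like Mitf was Rab38 (r = 0.279), a small GTPase that carries pigment enzymes to melanosomes. Ewsr1 (0.216) and Ociad1 (0.203) followed, and Tyrp1, Dct and Pmel ranked 102, 213 and 830, where r with Mitf had an SD of 0.0524 over these genes. For Sox10 the nearest was H1f0 (0.239), a linker histone gene whose start lies 137 kb from that of Sox10 on chromosome 15, then Nckap5l (0.159) and AC149090.1 (0.150); Dct ranked 368 and Tyrp1 5971. Pax3 was most like Nedd4 (0.187), Gbe1 (0.176) and Pabpc1 (0.176). Tfap2a was most like Mxi1 (0.195), Cdkn1b (0.187) and Gpatch8 (0.168), the first an antagonist of Myc and the second an inhibitor of the cell cycle. Mc1r was most like Cyb5r3 (0.221), Apoe (0.210) and Eps8 (0.203), with Dct ranked 37 and Pmel 511. These are the extremes of many weak values.

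The genes lie on 9 chromosomes of the mouse assembly GRCm38: Mitf at chr6:97807052-98021349, Sox10 at chr15:79154908-79165240, Pax3 at chr1:78101267-78197134, Tfap2a at chr13:40715302-40738376, Lef1 at chr3:131110471-131224356, Ednrb at chr14:103814625-103844402, Mc1r at chr8:123407107-123410744, Erbb3 at chr10:128567523-128589652 and Kit at chr5:75574916-75656722. Erbb3, on the minus strand, and Pmel (chr10:128704195-128720238), on the plus strand, point away from each other with starts 115 kb apart. Of the 43 tested genes whose lower coordinate lies within 1 Mb of that of Erbb3, 33 had a difference above 0 in R499 minus B16, with a median of 0.12 against -0.073 over all genes, while Erbb3 itself was at -0.13. In R499 minus B16PD1 it was 27 of 43 with a median of 0.10 against -0.089, and Erbb3 was at 0.19. In B16PD1 minus B16 this neighborhood had a median of 0.017 against 0.012. The 41 genes near Sox10 and the 38 near Mc1r had medians of -0.074 and -0.041 in R499 minus B16, and 0 genes near any of the 9 were called. Pmel overlaps Cdk2 on the opposite strand by 837 bases. Annotated antisense transcripts that overlap Tfap2a, Lef1 and Dct were not in the table.

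Promoter sequence was read from RefSeq windows on GRCm38.p6, which matched 6 of the 9 genes by symbol. No window was found by symbol for Sox10, Pax3 and Erbb3. The 250 bases before the start were searched on both strands for CATGTG (the core of the M-box that Mitf binds), CACGTG (another E-box), TGACGTCA (the palindromic site of Creb), CTTTGAT (a Lef1 and Tcf site), and ACAATG and ACAAAG (Sox sites). ACAATG and ACAAAG share their first letters, and no motif contains another. The shares of 32851 promoter windows of the same length with a match were 12.3%, 6.02%, 1.55%, 3.21%, 10.7% and 16.5%, respectively. The window at the most downstream of 3 Mitf starts, which is the start used in melanocytes, lies in an intron of the longer transcripts at chr6:97991533-97991782 on the plus strand. It is shown since Mitf was abundant while Lef1, whose motif is among its letters, was detected in 1 cell. Mc1r is shown as the receptor with most cells, at chr8:123406832-123407081 on the plus strand, and Dct as the pigment gene that ranked highest for Mc1r, at chr14:118052247-118052496 on the minus strand. Each run is 5′ to 3′ toward the start and capitals mark the matches.
Mitf: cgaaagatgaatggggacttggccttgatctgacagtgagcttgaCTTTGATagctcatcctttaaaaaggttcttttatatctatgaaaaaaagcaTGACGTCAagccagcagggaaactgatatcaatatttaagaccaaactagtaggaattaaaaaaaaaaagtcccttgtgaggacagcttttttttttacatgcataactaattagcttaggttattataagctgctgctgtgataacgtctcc
Mc1r: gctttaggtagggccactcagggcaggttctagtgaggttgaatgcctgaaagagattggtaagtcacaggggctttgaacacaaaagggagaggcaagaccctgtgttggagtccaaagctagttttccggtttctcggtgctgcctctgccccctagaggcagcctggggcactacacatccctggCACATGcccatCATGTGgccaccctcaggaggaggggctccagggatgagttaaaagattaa
Dct: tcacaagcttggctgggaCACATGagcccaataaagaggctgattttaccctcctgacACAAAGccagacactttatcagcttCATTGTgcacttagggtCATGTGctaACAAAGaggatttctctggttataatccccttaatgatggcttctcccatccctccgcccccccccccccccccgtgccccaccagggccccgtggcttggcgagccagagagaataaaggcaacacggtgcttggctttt
The Mitf window held CTTTGAT from base 205 and TGACGTCA from base 153 before the start, and no CATGTG. The Mc1r window held CATGTG 51 bases before the start and again, on the other strand, at 62. The Dct window held CATGTG at 150 and, on the other strand, at 232, with ACAAAG at 192 and 141 and ACAATG on the other strand at 167. The single Ednrb window and the 2 overlapping Kit windows held none of these letters, nor did the 2 Tfap2a windows. Of 4 Lef1 windows, the most downstream held CACGTG at 79, ACAAAG at 146 and, on the other strand, ACAATG at 132, and the others none. A match says only that the letters are there, and TPM per gene does not tell which Mitf start was used.

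Genes around these factors and receptors gave the rest of the pathway. Of 11 ligands, 1 was not analysed here and 7 were listed at 0 in the retained cells, among them Edn1, Edn2, Edn3, Nrg1 and Nrg2. Kitl was detected in 12 cells, Pomc, the precursor of melanocortins, in 28, and Wnt5a in 1. Of 9 related receptors 6 were listed at 0 (Ednra, Mc5r, Erbb4, Egfr, Pdgfra and Ret), and Erbb2, the partner with which Erbb3 signals, was detected in 11 cells. Met, the receptor of hepatocyte growth factor and a known Mitf target, was detected in 483 cells at 128 TPM, with 92.2 to 159 TPM over tumors. Fzd7 was found in 49 cells.

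Of 20 other lineage and partner factors, Ctnnb1, which encodes beta-catenin, was the most abundant (378 TPM, 476 cells), ahead of Zeb2 (46.0 TPM, 315 cells) and Tcf7l2 (32.9 TPM, 133 cells). Sox2, Foxd3, Tfap2b and Pou3f2 were listed at 0. Of the Lef1 relatives, Tcf7 was detected in 11 cells and Tcf7l1 in 39. Among 10 beta-catenin target genes 5 were listed at 0, and Axin2, a target used in many tissues, was detected in 16 cells, whereas Myc was in 375 (102 TPM) and Ccnd1 in 312 (36.5 TPM). All 17 signal relays below the receptors were detected, led by Gnas, which couples Mc1r to cyclic AMP (117 TPM, 402 cells), Mapk3 (77.8 TPM) and Map2k1 (75.9 TPM). Of 12 dedifferentiation genes, Vim was in 504 cells (779 TPM), Axl in 47 and Cdh2 in 141, and Ngfr was at 0. The 15 genes of the pigment and melanosome list, which also holds Cdk2, the gene that overlaps Pmel, were all detected. They were led by Tyrp1, Dct and Mlana (3475 TPM, 504 cells).

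In these lists 0 genes were called in any contrast. In B16PD1 minus B16, 12 of 15 genes of the pigment and melanosome list were below 0 with a median of -0.20, Cdk2 among them at -0.33. Of the 7 tested factors and receptors 6 were below 0 with a median of -0.32, against 47.0% below 0 and a median of 0.012 over all genes. The medians were 0.0074 for the partner factors, -0.052 for the relays (12 of 17 below 0), 0.049 for the beta-catenin targets and -0.092 for the dedifferentiation genes (5 of 6 below 0). In R499 minus B16 the medians were -0.091 for the pigment genes, -0.033 for the partner factors, -0.18 for the relays, 0.095 for the beta-catenin targets and -0.19 for the dedifferentiation genes, against -0.073. In R499 minus B16PD1 they were 0.11, -0.037, -0.13, -0.012 and -0.089, against -0.089. Zeb2 had the lowest difference of these lists in R499 minus B16, -1.17 (SE 0.36, adjusted p = 0.324), and Myc was at -0.94 (SE 0.36, adjusted p = 0.38). The 2 ligands and 3 related receptors tested had medians between -0.083 and 0.10 in the 3 contrasts.

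Markers of other cell types bore on where these values came from. Of 6 keratinocyte, 7 mast cell and 6 fibroblast markers, 0, 2 and 5 were detected in any retained cell, the most abundant being Tpsb2 (0.090 TPM) and Dcn (0.50 TPM), with Col1a1 and Krt5 at 0. Of 6 T cell markers 3 were detected, led by Tcf7, which is also a partner factor above, and Cd3d and Cd8a were at 0. The 6 myeloid markers were detected in few cells, led in TPM by Lyz2 (14 cells) and in cells by Fcer1g (28), and their summed mean was 200 and 12.2 TPM (B16), 19.0 and 228 TPM (B16PD1) and 5.96 and 6.09 TPM (R499). Of 6 endothelial markers Cdh5, Kdr and Tek were at 0, and Egfl7, found in 113 cells (52.3 TPM), made up nearly all of a sum of 64.4, 48.0, 103, 43.7, 18.3 and 31.8 TPM over the tumors. Mbp (416 cells, 151 TPM), S100b (379 cells) and Cdh19 (287 cells), which were listed as Schwann cell markers, were frequent. These 3 were higher in both R499 tumors than in the other 4. The differences were 0.82, 0.52 and 0.45 against B16 and 0.86, 0.51 and 0.55 against B16PD1. Of the 4 Schwann markers tested, the remaining 1 was lower without overlap against B16PD1, by -0.73. Egfl7 was lower in both R499 tumors, by -0.65 against B16 and -0.89 against B16PD1. Over all genes, 11.6% and 10.2% were higher without overlap in these contrasts, and 30.1% and 31.3% were lower. None of these markers was called. Of 35 markers of other types, leaving out the Schwann markers, Egfl7 and Tcf7, 2 or more occurred in 12 of 507 cells. Of these 12 cells, 0 held Kit or Erbb3, 3 held Tfap2a and 1 was the single retained cell with Lef1. Over all retained cells Kit was in 5.52%, Erbb3 in 12.0% and Tfap2a in 29.0%, so counts among 12 cells say little. Any such marker was found in 17.9% of cells with Kit, 9.84% with Erbb3 and 17.0% with Tfap2a, against 13.4% of all. The part of cells with such markers in the differences was not tested.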

How the data were processed

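Single-cell libraries of 6 tumors were analysed. The authors deposited TPM for each gene and cell, with no filter on cells; the submitters' processing notes name STAR, RSEM, GATK and mm10, and versions are not given in the sources used here. The study's minimum of mapped reads was not applied, since TPM holds no read counts, and doublets were not called. Tumor means of log2(TPM + 1), with a pseudocount of 1, were fitted together with limma 3.58.1 in R 4.3.3 (eBayes with a trend, two-sided, Benjamini-Hochberg over 11264 genes), after testing on simulated data. A difference on this scale understates that of low genes. Positions came from GENCODE, in which 25103 of 25215 gene identifiers matched. Named genes were the 9 genes, Tyrp1, Dct and Pmel, the 3 most abundant of each list, called list members, and the 3 most alike genes; others named were chosen after their values were seen. Python 3.11.15, numpy 2.4.6, pandas 2.3.3 and matplotlib 3.10.9 were used. The members and lists were chosen with earlier results of these data known. Subclones were not analysed here.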

Additional observations from a re-analysis of the deposited data

Results flagged for a closer look

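Lef1 had 99.56 TPM in a cell of B16PD1000 that the filter removed, because 10.2% of its TPM was mitochondrial. It was noticed since Lef1 was listed at 0 in the 24 removed cells of B16 tumors. The cell had 4569 genes detected and Tyrp1 at 2205 TPM. Another removed cell, of B16PD1002, had 2.94 TPM of Lef1.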

How the results depend on the processing

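The 7 tested factors and receptors passed the threshold in 0 of 375 recomputed differences, with a lowest adjusted p of 0.272 (limma). With 2 tumors a condition, differences of their size would seldom be called, so this count says little. In 13 of 21 differences the direction held under each alternative. With 2 tumors a condition, leaving 1 out leaves a lone tumor that is assumed to vary like the other conditions. The cause of the changes below was not tested.

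Turned differences in R499 minus B16 were Mc1r at 0.51 with genes detected as covariate, 0.20 in cells with 2500 to 5000 genes (a band chosen after seeing the data) and -1.13 to 0.23 with 1 tumor left out. Erbb3 was at 0.12 with the covariate and -0.36 to 0.096 with 1 tumor left out. Kit (main difference 0.056) was at -1.02 from the log2 of mean TPM, which follows its single high cell. It was at -0.0081 to 0.12 with 1 tumor left out. In R499 minus B16PD1, Sox10 (main difference -0.12) was at 0.20 with over 2000 genes and under 5% mitochondrial TPM. It was at 0.014 with the mean of each cell subtracted, 0.23 in the depth band and -0.28 to 0.040 with 1 tumor left out. Tfap2a (main difference -0.087) was at 0.041 with the stricter cells, 0.049 with cell means subtracted and -0.19 to 0.020 with 1 tumor left out. Mc1r was at -0.12 with a pseudocount of 0.1, -0.13 without a filter on cells, 1.54 with the covariate and -0.68 to 0.68 with 1 tumor left out. Erbb3 was at -0.035 to 0.42 with 1 tumor left out. Tyrp1 (main difference 0.11) was at -0.040 in the depth band, -0.19 with the covariate and -0.043 to 0.27 with 1 tumor left out. In B16PD1 minus B16, Tfap2a was at 0.065 in the depth band.

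Over all genes, limma called 0 in B16PD1 minus B16 (528 at an unadjusted p under 0.05), and 0 to 2 with 1 tumor left out, the 2 without B16007. It called 7 in R499 minus B16 and 8 in R499 minus B16PD1. These counts were 11 and 13 with a pseudocount of 0.1, 3 and 3 with 10, 20 and 14 for genes in at least 10% of cells, 23 and 20 without a filter on cells, and 28 and 22 with cell means subtracted. They were 0 and 0 from the log2 of mean TPM, without a filter on genes, with the covariate, and without a trend. In R499 minus B16PD1 the count was 3 with the stricter cells and 4 in the depth band. With 1 tumor left out they ran from 0 (without B16008) to 10 and from 3 (without B16PD1000 or R499015) to 8, and R499 minus B16 had 4 without R499015. Subtracting cell means moved the median of all genes from -0.073 to 0.030 in R499 minus B16 and from -0.089 to 0.046 in R499 minus B16PD1, and the split of higher and lower calls in R499 minus B16 from 6 and 1 to 20 and 8.

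Of 63 recomputed shares of cells 13 moved by more than the spread between tumors, and of 210 values of r 6 did, all among cells with the gene detected, a choice made after seeing the data. Of 483 recomputed list medians 30 moved by more than the SE. No paired analysis was possible because the tumors came from different mice and the conditions share no tumor number in the cell names. The depth in reads is unknown.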

Other observations

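Of 95 cells that failed the filter, Mitf was detected in 17 of 24 from B16, 22 of 26 from B16PD1 and 39 of 45 from R499, and Pax3 in 14, 18 and 35 of them. Erbb3 was detected in 5, 3 and 2, and Kit in 0, 2 and 3.

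Kitl, which encodes the ligand of Kit, had 1577 TPM in its highest cell, with a median of 52.0 TPM over the 12 cells that held it. Pomc had a median of 35.8 TPM over 28 cells.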
